A study of Mus musculus with 2 samples.

Results

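Mir342, Mir149 and Mir708 are 3 mouse microRNA genes that lie within introns of the protein-coding genes Evl, Gpc1 and Tenm4. They were chosen by symbol from among microRNAs whose abundance in these same libraries was already known, so their levels are given as a description and support nothing further. All 3 were found, of 1973 genes in the count tables. The libraries hold small RNA from the midbrain of mouse embryos (strain B6NCrl, embryonic day 12.5, males and females pooled). There was 1 group and no treatment. Replicate 1 came from a pool of 120 embryos and replicate 2 from a pool of 88, and the labels give RNA shorter than 30 nucleotides.

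A microRNA is cut from a hairpin transcript in steps made by the enzymes Drosha and Dicer. An arm of the hairpin is then loaded into an Argonaute protein and pairs with messenger RNAs, mostly through its seed, bases 2 to 8 counted from the 5′ end. A microRNA within an intron on the strand of its host gene can be made from the host's own transcript or from a separate promoter. Evl encodes an actin regulator of the Ena/VASP family, Gpc1 encodes glypican 1, a heparan sulfate proteoglycan of the cell surface, and Tenm4 encodes teneurin 4, a large transmembrane protein of the nervous system. miR-342 is also well known from leukocytes, and miR-708 belongs with miR-28 to 1 family. The host messenger RNAs were not measured in these libraries.

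The mature sequences are shown first because the seed decides which microRNAs can be grouped. They are from RefSeq on GRCm38.p6, written 5′ to 3′ with the seed in capitals. Both arms of each hairpin are listed, followed by the 5′ arm of miR-28a.
mmu-miR-342-5p: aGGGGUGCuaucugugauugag
mmu-miR-342-3p: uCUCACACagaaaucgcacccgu
mmu-miR-149-5p: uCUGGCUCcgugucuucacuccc
mmu-miR-149-3p: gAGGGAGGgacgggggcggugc
mmu-miR-708-5p: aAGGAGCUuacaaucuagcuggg
mmu-miR-708-3p: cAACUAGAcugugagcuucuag
mmu-miR-28a-5p: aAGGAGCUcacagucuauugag

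No seed was shared among the 6 arms of Mir342, Mir149 and Mir708. Among the RefSeq entries used, no other microRNA carried the seed of either Mir342 arm, of miR-149-5p or of miR-708-3p. The seed of miR-708-5p was shared with miR-28a-5p. Aligned from base 1 without gaps, those sequences were identical at 16 of the 22 positions compared, with the first 8 bases the same. The differences, with the base of miR-708-5p first and positions counted from its 5′ end, were U9C, A13G, G18U, C19U, U20G and G21A. None of the 6 arms had a run of 18 bases that also occurred, on either strand, in another gene's entry of that table.

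The hairpins of Mir342 and Mir149 are shown with both mature arms in capitals, because the counts below are per hairpin gene and do not separate the arms.
Mir342 hairpin: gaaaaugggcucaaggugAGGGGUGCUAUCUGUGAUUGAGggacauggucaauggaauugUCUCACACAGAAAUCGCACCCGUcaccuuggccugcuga
Mir149 hairpin: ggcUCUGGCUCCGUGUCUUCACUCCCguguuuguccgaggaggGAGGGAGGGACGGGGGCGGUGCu

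Base composition set Mir149 apart from Mir342. Of the 66 bases of the Mir149 hairpin, 45 were G or C (68.2%), a higher share than in 95.9% of the 1005 hairpins in the table. In the Mir342 hairpin it was 51 of 99 bases (51.5%), close to the table's median of 51.7%. The 3′ arm of Mir149 had 15 G among its 22 bases, and its 81.8% of G and C was higher than in 99.3% of 1738 mature entries. The arms of Mir708 had 47.8% (5p) and 45.5% (3p) of G and C, against a median of 52.2%.

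All 3 genes lie on the plus strand, as do their hosts, and none overlaps an annotated exon of its host. On mm10, Mir342 (ENSMUSG00000065436.1) lies at chr12:108658620-108658718, in intron 3 of the principal Evl transcript. It is 5520 bases from the exon before it and 14570 bases from the exon after it. Mir149 (ENSMUSG00000065470.1) lies at chr1:92850378-92850443, in intron 1 of Gpc1, 18280 bases after the first exon and 2903 bases before the second. Mir708 (ENSMUSG00000076143.1) lies at chr7:96249424-96249532, in intron 1 of the principal Tenm4 transcript, 37433 bases after the exon before it and 105823 bases before the next.

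Among the 143 quantified microRNA genes within introns of protein-coding hosts, the stretch between the flanking exons of any host transcript had a median of 8473 bases. For Mir708 it was 143365 bases, and 5 of the 143 genes had a longer one. For Mir342 it was 20189 bases, with 46 genes longer, and for Mir149 it was 17520 bases, with 51 longer. The exon nearest to Mir708 was 37433 bases away, against a median of 1683 bases for the 143 genes.

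**Figure D1:**
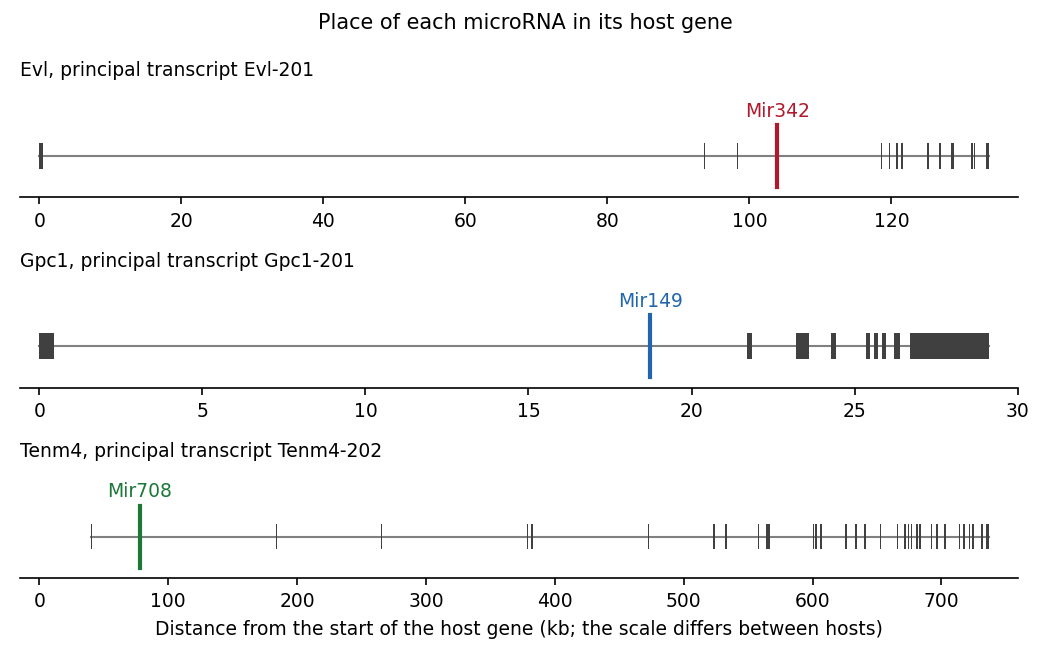
Exons (dark blocks) of the principal transcript of Evl, Gpc1 and Tenm4, with the microRNA as a coloured line and distance from the start of the host gene in kb. Mir342 lies 103.9 kb into Evl, Mir149 18.7 kb into Gpc1 and Mir708 78.2 kb into Tenm4, each between exons.

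Evl and Gpc1 held no other microRNA gene of the table. Tenm4 held a second, Mir6394, 56.1 kb after Mir708 in the same intron of the principal transcript. Mir6394 had 0 reads in both libraries, which allows up to 0.648 CPM in replicate 1 and 1.07 CPM in replicate 2. CPM is counts per 1000000 own-strand counts of the library, and that limit of 3 counts covers counting error only. Mir708, in the same intron, had 14179 and 6969 reads.

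Mir342 and Mir149 stood at nearly the same level and Mir708 at a lower one. Mir342 had 69810 counts in replicate 1, or 15080 CPM (95% Wilson interval 14969 to 15191), and 38173 counts in replicate 2, or 13607 CPM (13472 to 13743). Mir149 had 62080 counts in replicate 1, or 13410 CPM (13306 to 13515), and 40717 counts in replicate 2, or 14513 CPM (14374 to 14654). Mir708 had 3063 CPM in replicate 1 (3013 to 3114) and 2484 CPM in replicate 2 (2426 to 2543). The higher library was thus replicate 1 for Mir342 and Mir708 and replicate 2 for Mir149. The intervals cover counting error only, since amplified reads are not independent molecules.

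The means were 14343 ± 1042 CPM (SD, n = 2) for Mir342, 13962 ± 780.0 CPM for Mir149 and 2773 ± 409 CPM for Mir708. As shares of the assigned counts these were 1.43% ± 0.10, 1.40% ± 0.078 and 0.277% ± 0.041 (SD, n = 2). They ranked 15, 16 and 64 among all genes by mean CPM, which leaves out multimapping reads because those were assigned to no gene. The 3 genes together held 31078.5 ± 671 CPM, that is 3.16% of the assigned counts in replicate 1 and 3.06% in replicate 2.

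The order of Mir342 and Mir149 was opposite in the libraries. Mir342 had 1.12 times the counts of Mir149 in replicate 1 and 0.938 times in replicate 2. That ratio changed by -0.26 ± 0.013 on the log2 scale from replicate 1 to replicate 2 (counting SE). Their means differed by less than either SD, so these neighbours in rank do not differ beyond the spread between libraries. Mir708 lay below both in each library: Mir342 had 4.92 and 5.48 times its counts, and Mir149 4.38 and 5.84 times.

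Counts were compared between genes without scaling to the hairpin, because these short reads come from mature arms. The annotated arms add up to 45 bases for each of the 3 genes, so counts per base of mature arm give the same order. Per 100 bases of hairpin gene (99, 66 and 109 bases long), the mean levels were 14488 CPM for Mir342, 21154 CPM for Mir149 and 2544 CPM for Mir708. On that scale Mir149 stood above Mir342.

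**Figure D2:**
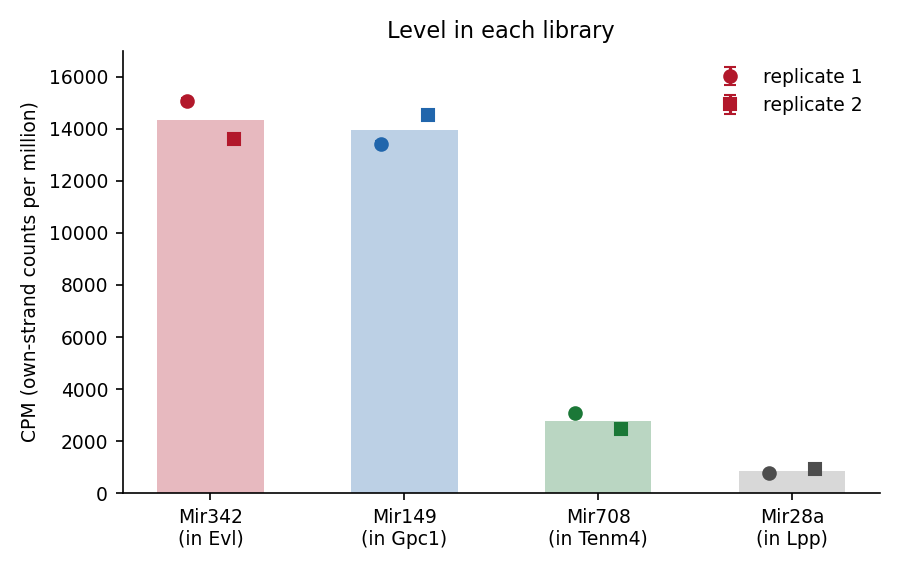
CPM (y axis, from 0) of Mir342, Mir149, Mir708 and Mir28a in replicate 1 (circles) and replicate 2 (squares), with the mean as a bar; the 95% Wilson intervals of the first 3 are smaller than their points. Mir342 and Mir149 lie between 13410 and 15080 CPM in opposite order, Mir708 between 2484 and 3063 CPM.

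The genes nearest in level to Mir342 were Mirlet7g and Mir30a above it and Mir149 and Mir106b below it. Mir30a had 14671 ± 127 CPM (SD, n = 2) and Mir106b 13792 ± 1614 CPM. Mir322 followed Mir149 with 13585 ± 1795 CPM. From Mir30a down to Mir322, each difference between neighbours in this order was smaller than the larger of their SDs. Mirlet7g, at 20205 ± 2811 CPM, lay above Mir342 by more than their SDs added together. Mir708 stood between Mir379, with 2806 ± 111 CPM, and Mir139, with 2737 ± 118.5 CPM, both nearer to it than its own SD.

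The genes most like each of the 3 in both level and library ratio were found among the 98 genes of mean 1000 CPM or more. Likeness was measured as the distance in the plane of mean log2 CPM and log2 ratio, over 2 libraries. For Mir342 they were Mir106b (distance 0.11), Mir30a (0.14) and Mir149 (0.27). For Mir149 they were Mir30a (0.15), Mir322 (0.16) and Mir342 (0.27). For Mir708 they were Mir484 (0.077), Mir363 (0.15) and Mir425 (0.32).

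Among microRNAs within introns of protein-coding hosts, Mir342 and Mir149 ranked 6 and 7 and Mir708 ranked 22 of the 143 quantified genes. This class, set by annotation, had 647 genes in the tables and held 34.6% of assigned counts in replicate 1 and 35.1% in replicate 2. Above Mir342 stood Mir335 in Mest (62676 ± 906 CPM, SD, n = 2), Mir99b in Spaca6, Mir30e in Nfyc, Mir26b in Ctdsp1 and Mirlet7g in Wdr82. Mir342, Mir149 and Mir708 made up 9.12% of the class in replicate 1 and 8.72% in replicate 2. Multimapping reads, 33.4% of the total in both libraries, were assigned to no gene. MicroRNAs with several gene copies can therefore stand lower in these ranks and shares than all their reads would place them. Of the 33 genes of the class with a mean of 1000 CPM or more, 18 were the only microRNA gene of their host, Mir342 and Mir149 among them.

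**Figure D3:**
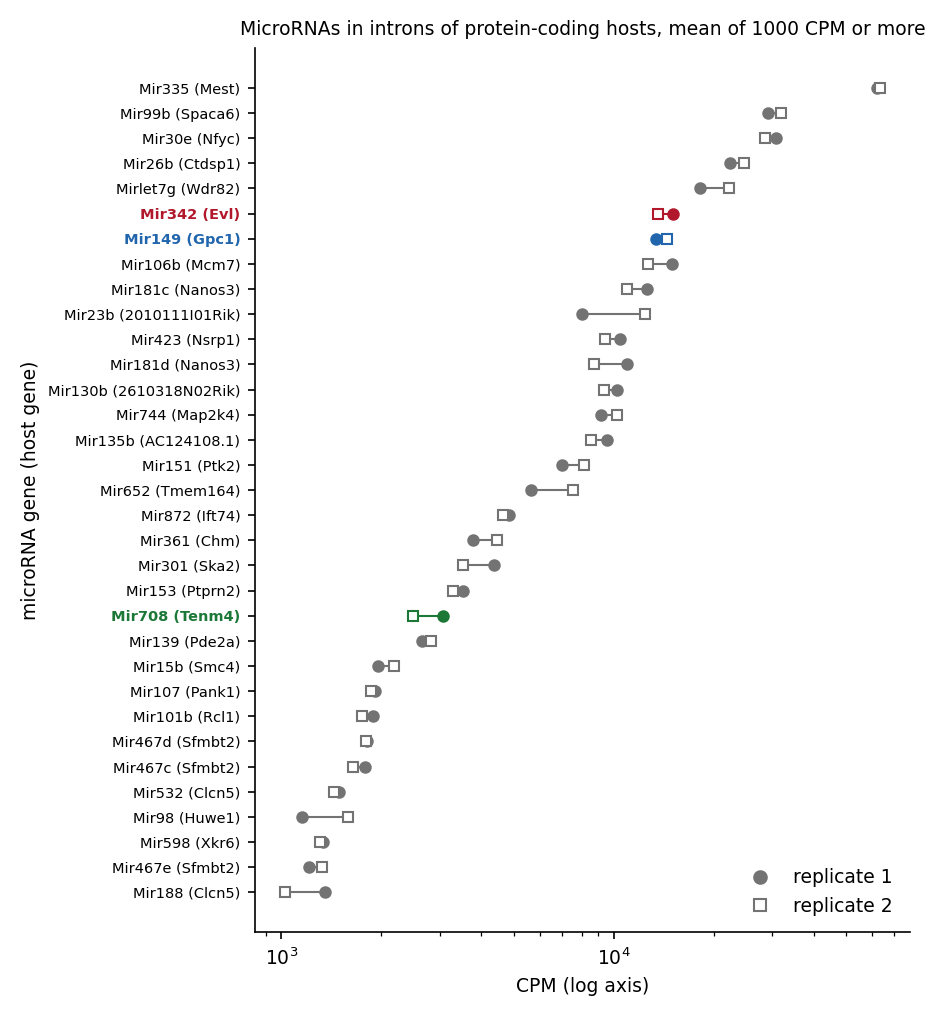
CPM (log axis) in replicate 1 (filled circles) and replicate 2 (open squares) of the 33 microRNAs within introns of protein-coding hosts that reached a mean of 1000 CPM, each with its host. Mir342 and Mir149 are next to each other at ranks 6 and 7, and Mir708 is at rank 22.

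Mir28a, in an intron of Lpp, carries the seed of Mir708 and was less abundant in both libraries. It had 3586 counts (775 CPM) in replicate 1 and 2617 counts (933 CPM) in replicate 2, with a mean of 854 ± 112 CPM (SD, n = 2). Mir708 had 3.95 times the counts of Mir28a in replicate 1 and 2.66 times in replicate 2, since Mir708 was lower and Mir28a higher in replicate 2. The arms add up to 44 bases for Mir28a, so scaling by mature length changes this ratio little. The third gene of the family in the tables, Mir28b, had 4 counts in each library. Its mature sequence holds the heptamer of the Mir708 seed from base 1, not base 2. Mir708 thus gave 79.8% of the counts of the 3 family genes in replicate 1 and 72.7% in replicate 2. The counts do not separate the arms, so these ratios and shares are of hairpin genes and not of the arms that share the seed.

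The libraries were then compared with each other for every gene with at least 10 counts in both. The test was a two-sided Fisher's exact test on counts with Benjamini-Hochberg adjustment over the 380 genes so quantified. It sets these 2 libraries against counting noise and compares no conditions. It called 206 of the 380 genes (54.2%) at adjusted p under 0.05, of which 103 were higher and 103 lower in replicate 2. Among the 98 genes of mean 1000 CPM or more it called 85 (86.7%), so a call is the usual outcome at the depth of Mir342, Mir149 and Mir708.

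All 3 genes were called, and their differences were small. Mir342 was 1.11-fold lower in replicate 2 (log2 ratio of CPM -0.15 ± 0.0092, counting SE, Fisher's exact test, adjusted p = 3.98e-59). Mir708 was 1.23-fold lower in replicate 2 (-0.30 ± 0.021, exact test, adjusted p = 9.99e-47). Mir149 was 1.08-fold higher in replicate 2 (0.11 ± 0.0092, exact test, adjusted p = 8.79e-35). The 3 genes therefore did not move in 1 direction.

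These differences lay within the spread seen over all genes. Over the 98 genes of mean 1000 CPM or more, the median size of the log2 ratio was 0.19. It was larger than that of Mir342 in 60 of them, than that of Mir149 in 67 and than that of Mir708 in 28. In an alternative, edgeR's common dispersion of the 2 libraries (biological coefficient of variation 20.4%) was added to the counting error. Each log2 ratio was then set against that error in a normal test, which is not edgeR's own test. None of the 3 was called, with normal-test unadjusted p = 0.722 for Mir342, 0.784 for Mir149 and 0.468 for Mir708 (adjusted p = 0.991 for each). On that scale 4 of the 380 genes (1.05%) were called and 19 had an unadjusted p under 0.05. The 4, named after their values were seen, were Mir122, Mir449a, Mir204 and Mir1298. The dispersion was estimated from the same 2 libraries, so it includes any difference between the pools. It is a single value for all 380 genes and was not fitted to the more abundant ones.

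**Figure D4:**
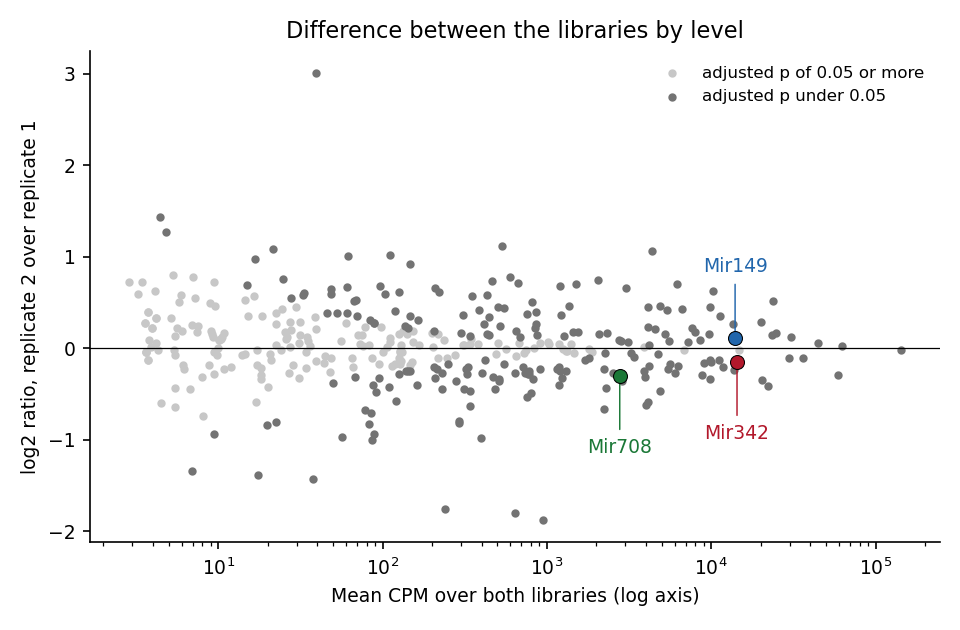
Log2 ratio of CPM, replicate 2 over replicate 1, against mean CPM (log axis) for the 380 quantified genes, with those at adjusted p under 0.05 in dark grey. Mir342 (-0.15), Mir149 (0.11) and Mir708 (-0.30) lie inside the cloud of genes of like level.

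By annotation, the 143 quantified microRNAs within introns of protein-coding hosts were called higher in replicate 2 in 35 cases, lower in 32 and not called in 76. Over all 380 genes the counts were 103, 103 and 174. Their median log2 ratio was 0.03, against 0.04 over all 380 genes. At a mean of 1000 CPM or more the class had 14 higher, 15 lower and 4 not called, beside 42, 43 and 13 of the 98 genes of that level, with a median of -0.04 against -0.01. A list of 61 microRNAs was also written by name for such hosts, though the annotation places some of them elsewhere, among them Mir328 (outside any host), Mir137 (an exon of the non-coding Gm26871) and Mir126a (an exon of Egfl7). It gave 18 higher, 20 lower and 19 not called among its 57 quantified members, with a median of -0.04.

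The libraries were checked for microRNAs of the tissue and of other cell types. The brain list summed to 18781 CPM in replicate 1 and 16767 CPM in replicate 2 over the 15 of 16 genes found by symbol, led by Mir135b, Mir137, Mir153 and Mir138-1. The gene copies of Mir9 and Mir124a in it had at most 316 CPM and 14.9 CPM in either library. Multimapping reads, which are 33.4% of the total in both libraries, were assigned to no gene. Of the 13 quantified brain genes, 2 were called higher and 6 lower in replicate 2 (median log2 ratio -0.10), beside 103 in each direction over all 380 genes. In a whole tissue, fewer cells of a type and less of a microRNA per cell cannot be told apart.

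The leukocyte list, which bears on Mir342, summed to 609 CPM in replicate 1 and 770 CPM in replicate 2. That is over 5 of 7 genes found by symbol, with Mir223 highest at 352 ± 96.5 CPM (SD, n = 2). The symbols not found were Mir146a and Mir142, so the sum holds no counts under them. The list held Mir146 as well as Mir146a, and Mir146 is in the sum, at 41.0 and 82.7 CPM in replicates 1 and 2. The missing symbol therefore does not show that miR-146a was left out. Called higher in replicate 2 were 3 of its 4 quantified genes (Mir150, Mir146 and Mir223); Mir155 was lower there, as was Mir342. Over all genes 103 of 380 were called higher. The summed mural and mesenchymal list stood at 11618 and 17965 CPM, endothelial Mir126a at 23434 and 26242 CPM, the epithelial list at 2764 and 3549 CPM and the erythroid list at 413 and 271 CPM in replicates 1 and 2. Called higher in replicate 2 were 5 of the 6 mural and mesenchymal genes, 6 of the 7 epithelial genes, Mir126a and 1 of the 3 erythroid genes, of which Mir451a was lower, again beside 103 of 380 genes called higher. Every marker found by symbol in these lists had reads in both libraries. The part of other cell types in the levels of Mir342, Mir149 and Mir708 was not tested.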

How the data were processed

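MicroRNA reads were measured in 2 libraries of 1 tissue. The deposited files hold raw counts per microRNA gene, made by the authors from alignments to mm10 with annotation M4, per the deposited read-me files. For the aligner and the counter, names were not given in the sources used here. Each file has 3 count columns, read from their layout as either strand, own strand and opposite strand; own-strand counts were used, 4629302 in replicate 1 and 2805487 in replicate 2. Rows that name no gene (56.9% and 58.2% of reads) stayed out of totals. CPM is an own-strand count per 1000000 such counts. Reads of several copies are in no gene, and arms are not separated.

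Symbols, places and hosts came from GENCODE M21 (GRCm38, the assembly of mm10). A microRNA was within an intron of a host if it lay inside a protein-coding gene on the same strand and overlapped no exon on that strand (exons of small RNA and TEC genes set aside). Principal transcripts are those so tagged there. Mature sequences were found for all 3 genes in a RefSeq table (GRCm38.p6), from which mature entries on chromosome 18 were left out.

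Genes with at least 10 counts in both libraries were tested by Fisher's exact test (scipy 1.17.1) with Benjamini-Hochberg adjustment at 0.05. The test was also run on simulated counts with counting noise alone, so that run says nothing of spread between libraries. Common dispersion and TMM factors came from edgeR 4.0.16 and size factors from DESeq2 1.42.0. A binomial test of the counts was used with those factors, and a normal test of the log2 ratio with the dispersion. With 1 library a side, edgeR's quasi-likelihood test had no residual degrees of freedom. Both libraries differed over genes beyond counting noise (chi-square 61271 on 379 degrees of freedom), so neither is a copy of the other. The labels call them biological replicates from separate pools.

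Named genes are the 3 genes and the pair just above and the pair just below each in mean CPM. Also named are the 3 most alike in level and ratio and genes that share a seed. So are the nearest gene of the count tables on each side on the chromosome, and up to 4 most abundant genes of each list. The genes and lists were chosen with earlier results of these data known.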

Additional observations from a re-analysis of the deposited data

Results flagged for a closer look

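Mir708 had reads on the opposite strand in both libraries, 17 in replicate 1 and 11 in replicate 2, which is more than the 3 reads that a count of 0 allows. These reads are outside the own-strand counts and made up 0.12% and 0.158% of the reads on either strand of the gene. Mir342 and Mir149 had 0 such reads in both libraries. Over all genes, quantified or not, the opposite strand held 113751 and 71032 reads. Of the 380 quantified genes, 24 had some in both libraries, which does not give their part of those totals. The source of the opposite-strand reads was not tested.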

How the results depend on the processing

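With all reads of a library as the total, the levels were 6090 for Mir342, 5920 for Mir149, 1179 for Mir708 and 13189 per 1000000 reads for their sum. With Mir99a left out of the total they were 16738, 16291, 3237 and 36266 CPM. With counts on either strand the sum was 30326 CPM, and the level of each gene moved by less than its SD. Each library alone gave 13607 to 15080 CPM for Mir342, 13410 to 14513 for Mir149, 2484 to 3063 for Mir708 and 30604 to 31553 for the sum. The ratio of Mir342 to Mir149 was 0.938 to 1.12, of Mir342 to Mir708 4.92 to 5.48 and of Mir149 to Mir708 4.38 to 5.84. The differences between the libraries kept their direction and stayed called with TMM factors, DESeq2 size factors, either strand and no filter on low counts. With edgeR's common dispersion added to the counting error, those of Mir342 (-0.15), Mir149 (0.11) and Mir708 (-0.30) were no longer called (normal test, adjusted p = 0.991 each). The larger error is that alternative's own construction. Against 206 genes called, that alternative called 4 of 380. The other alternatives called 199 (no filter) to 214 (either strand). Either strand and no filter kept Fisher's exact test, while TMM factors and DESeq2 size factors used a binomial test on the counts. With DESeq2 size factors 44.3% of the 201 calls were higher in replicate 2. No paired analysis was possible because the samples form 1 group. Nor could leaving out a library be run for the comparison of the libraries. Depth does not limit the 3 levels: with 2 pools, the spread between libraries does.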

Other observations

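The seed of miR-149-3p was also carried by mature sequences of 4 other genes, Mir7016, Mir1943 and 2 gene copies of miR-6967. Their levels were far below that of Mir149. Mir1943 had 17 counts in replicate 1 and 10 in replicate 2, Mir7016 had 4 in each, and the gene copies of miR-6967 had 0 in both. Reads that fit both of those copies are in no gene, so 0 there does not show absence. The counts do not say which arm of the Mir149 hairpin gave its reads.

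Neighbours on the chromosome were searched among the genes of the count tables only. Nearest to Mir342 were Gm22120, 2793 kb before it with 2 counts in each library, and Gm23872, 63.1 kb after it with 0 in both. Nearest to Mir149 were Mir6900, 386 kb before it with 24 and 25 counts, and Mir6901, 424 kb after it with 1 count in each library. Before Mir708 the nearest was Gm22171, 6954 kb away with 0 counts. None of these neighbours reached the level of the microRNA it stood next to.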
